A study of Mus musculus with 6 samples.

Results

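A set of 9 red cell and blood content genes were described in the aortic arch of mice carrying marrow without or with the microRNA gene Mir21. They comprised the adult alpha globins Hba-a1 and Hba-a2, the adult beta globins Hbb-b1 and Hbb-b2, the globin chaperone Ahsp, the haem enzyme Alas2, the anion exchanger Slc4a1, the transcription factor Klf1 and the erythropoietin receptor Epor. Members were the array probes, other than controls, whose gene name in the files equals one of these 9 names. Each name had 1 probe, so 9 of the 55681 probes on the array were members. Of these, 8 lay well above background on every array and were among the 38340 probes tested. Klf1 was not well above background on any of the 6 arrays.

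The comparison held 3 arches from BM Mir21 KO mice, set against 3 arches from BM Mir21 WT mice, each hybridised alone to 1 array. BM Mir21 KO mice were Mir21+/+ recipients of Mir21-/- marrow, and BM Mir21 WT mice were Mir21+/+ recipients of Mir21+/+ marrow. All recipients were female with the strain label C57BL/6, received 2 X-ray doses of 5 Gy inside 4 h and were given donor marrow 1 day later. Every mouse began a high-fat diet 3 weeks after irradiation and stayed on it for 12 weeks. Resident cells of the recipient's vessel wall thus carry intact Mir21 in both groups, and neither the share of blood cells that came from the donor nor the ages of the mice are stated in the labels. The labels do not say whether an arch sample is 1 mouse or a pool, so p-values measure only the spread between these samples. No array probe carried the name of Mir21 or Mir21a (0 probes), so the genotype of the marrow could not be checked on these arrays.

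Red cells arise in the marrow from progenitors that need erythropoietin, and Klf1 and Gata1 switch on their globin, haem and membrane genes. The nucleus is lost at the end of this path, so circulating red cells keep only leftover RNA, which is mostly globin and is richest in the young reticulocytes. Whole tissue that still holds blood therefore carries globin RNA, and arterial endothelium is also known to make some alpha globin. In these bulk samples, fewer red cells and less RNA per red cell cannot be told apart.

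The array probes of the globins are shown because their identity decides what each level measures. The Hba-a1 probe and the Hbb-b2 probe, each of 60 bases, both read through the codon of the distal histidine, the residue that faces the oxygen bound to haem. Capitals mark that codon. The Ahsp probe is added since that gene had the largest scaled SD within groups of the members tested, and no letter of it is in capitals.
Hba-a1: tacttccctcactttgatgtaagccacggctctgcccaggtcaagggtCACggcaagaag
Hbb-b2: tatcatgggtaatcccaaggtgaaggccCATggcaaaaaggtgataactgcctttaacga
Ahsp: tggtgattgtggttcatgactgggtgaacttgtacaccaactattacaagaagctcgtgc
The files list the accessions of both alpha globin genes for the Hba-a1 probe and likewise for the Hba-a2 probe. Levels of the alpha globin genes can therefore not be assigned to one gene copy. On mm9, the build the files use, the Hba-a1 probe lies on chromosome 11 from 32183955 to 32184014 and the Hba-a2 probe on the same chromosome from 32197245 to 32197304. The probe named Hbb-b1 lies on chromosome 7 from 110961105 to 110961164. Its accession belongs to Hbb-bt in the RefSeq gene table. C57BL/6 mice carry the single haplotype of the beta globin locus, whose adult genes are Hbb-bs and Hbb-bt. The Hbb-b2 and Ahsp probes are marked as unmapped in the files. Hbb-b2 is not among those adult genes, so which beta globin RNA its probe reads is not settled and was not tested. The Alas2 probe lies on chromosome X from 147004993 to 147005052, the Slc4a1 probe on chromosome 11 from 102210256 to 102210315, the Klf1 probe on chromosome 8 from 87428881 to 87428940 and the Epor probe on chromosome 9 from 21763422 to 21763481. Where in their transcripts the probes lie, beyond the codons marked above, is not given here.

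Promoters of 4 genes whose levels moved together across arches are shown with the motifs that a search found in them. The windows are the 250 bases before the start of each gene, credited to RefSeq on GRCm38.p6. Searched on both strands were the letters CACCC, the box that Klf1 is known to bind, the letters CCAAT, and the letters GATA, the core of sites for Gata1. The letters ATATAA, which fit the TATA box, were searched on the strand of the gene only. Capitals mark every match, and GATA and ATATAA can share letters. Hba-a1 lies at chr11:32283422-32283671 on the plus strand, Hbb-bs at chr7:103827929-103828178 and Hbb-bt at chr7:103813924-103814173 on the minus strand, and Alas2 at chrX:150547167-150547416 on the plus strand.
Hba-a1: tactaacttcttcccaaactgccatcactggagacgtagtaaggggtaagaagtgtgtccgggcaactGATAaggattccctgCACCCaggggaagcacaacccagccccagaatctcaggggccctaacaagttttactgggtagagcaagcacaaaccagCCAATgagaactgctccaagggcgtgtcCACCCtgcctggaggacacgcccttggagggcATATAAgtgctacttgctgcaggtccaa
Hbb-bs: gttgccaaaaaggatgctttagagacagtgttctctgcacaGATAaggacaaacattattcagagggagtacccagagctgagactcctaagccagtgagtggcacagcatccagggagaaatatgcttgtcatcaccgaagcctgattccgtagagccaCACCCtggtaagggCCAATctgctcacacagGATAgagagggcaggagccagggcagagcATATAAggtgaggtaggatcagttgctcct
Hbb-bt: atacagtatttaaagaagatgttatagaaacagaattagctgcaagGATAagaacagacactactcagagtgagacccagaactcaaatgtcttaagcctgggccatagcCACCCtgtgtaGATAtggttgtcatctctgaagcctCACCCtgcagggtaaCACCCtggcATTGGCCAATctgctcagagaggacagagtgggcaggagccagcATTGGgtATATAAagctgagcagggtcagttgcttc
Alas2: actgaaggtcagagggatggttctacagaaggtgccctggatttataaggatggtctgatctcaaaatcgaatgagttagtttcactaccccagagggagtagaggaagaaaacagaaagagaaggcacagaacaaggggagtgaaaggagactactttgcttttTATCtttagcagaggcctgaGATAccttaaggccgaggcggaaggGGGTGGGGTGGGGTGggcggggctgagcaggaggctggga
Hba-a1, Hbb-bs and Hbb-bt each held all 4 motifs, as did the window of Hba-a2, which shares an unbroken run of 247 bases with that of Hba-a1. Among all 32851 RefSeq windows of this length, 0.603% held all 4. Singly, CACCC stood in 52.0% of windows, CCAAT in 33.8%, GATA in 53.6% and ATATAA in 5.57%. The ATATAA box began 28 bases before the start in Hba-a1, 30 in Hbb-bs and 29 in Hbb-bt. Alas2 held 3 matches to CACCC and 2 to GATA, with 0 to CCAAT and 0 to ATATAA. In the windows of Klf1 and Epor, CACCC and GATA were found as well. A match describes the letters and shows no binding.

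The data behind these values were 1-colour arrays with 66.4% to 74.4% of spots well above background, 0 saturated spots and a 75th percentile of signal from 239 to 407. The lowest of both belonged to KO replicate 3. Levels below are log2 signals relative to each array's 75th percentile unless called unscaled, and differences are KO minus WT. All arrays shared 1 slide and 1 scan, with KO arrays in slide row 2 and WT arrays in row 1, so row and group cannot be told apart. The 3 arrays per group limit the precision.

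No red cell member differed between the marrow groups beyond the spread between arches. Of the 8 members tested, 0 passed the adjusted test over all probes, where 1 of 38340 probes (0.00261%) passed (limma, Benjamini-Hochberg). At an unadjusted p below 0.05 the count was also 0 of 8 members, against 8.71% of all probes. For 0 of the 8 members did the 3 KO arrays lie wholly to one side of the 3 WT arrays, against 13.7% of all probes. The spread between arches of one group was instead wide, and 2 arches, KO replicate 2 and WT replicate 1, were the poorest in red cell RNA.

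The beta globins, partners of alpha globin in adult haemoglobin, showed this spread. Hbb-b1 had unscaled signals of 149857, 69605 and 164208 on the KO arrays, against 53378, 136120 and 121413 on the WT arrays. On the scaled log2 level it averaged 8.58 ± 0.99 with KO marrow and 7.97 ± 0.82 with WT marrow (SD, n = 3 each). The groups overlapped, since KO replicate 2 and WT replicate 1 were low and the other 4 arrays high. The difference was 0.61 ± 0.56 (SE), with a 95% interval from -0.70 to 1.92 and an adjusted p of 0.775 (limma). Within one group the highest array exceeded the lowest 3.81-fold with KO marrow and 3.02-fold with WT marrow.

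Hbb-b2 had unscaled signals of 45831, 17779 and 47019 with KO marrow, against 18362, 35937 and 39371 with WT marrow. KO replicate 2 and WT replicate 1 were the lowest arrays, as for Hbb-b1, though which beta globin gene the Hbb-b2 probe reads was not tested. Its difference was 0.48 ± 0.56 (adjusted p = 0.832, limma), and its levels were 6.76 ± 1.09 with KO marrow and 6.28 ± 0.66 with WT marrow. A further adult beta globin probe, named Beta-s in the files and Hbb-bs in RefSeq, is no member by name. It read 6.39, 4.55 and 6.45 with KO marrow, against 4.26, 5.48 and 5.21 with WT marrow on the log2 scale, with the same 2 arrays lowest and a difference of 0.82 ± 0.55.

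Alpha globin varied at one probe and hardly at the other. Hba-a1 had unscaled signals of 222633, 111038 and 221206 with KO marrow, against 137050, 207994 and 219674 with WT marrow. Again KO replicate 2 and WT replicate 1 were low, and the groups overlapped. The difference was 0.22 ± 0.44 (95% interval from -0.79 to 1.24, adjusted p = 0.904, limma), with levels of 9.14 ± 0.87 with KO marrow and 8.92 ± 0.44 with WT marrow.

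The unscaled Hba-a2 signals were 307546, 298516 and 312300 with KO marrow, against 301724, 306424 and 299791 with WT marrow. They differed by 1.05-fold between the highest and the lowest array, a coefficient of variation of 1.73%, against 38.6% for Hbb-b1 and 26.5% for Hba-a1. Among the 15 probes of the array with a mean signal above 200000, the coefficient of variation ran from 1.73% to 18.2% with a median of 7.77%, against a median of 23.7% over all tested probes. No spot of Hba-a2 was marked as saturated. On the scaled level Hba-a2 was 0.31 ± 0.22 higher with KO marrow (9.94 ± 0.38, against 9.63 ± 0.16 with WT marrow, adjusted p = 0.727, limma), while on unscaled signals its difference was 0.02. The scaled spread of this probe thus comes almost wholly from the division by each array's 75th percentile, which was lowest on KO replicate 3. Whether this probe can register differences in globin RNA at such signals was not tested.

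**Figure D1:**
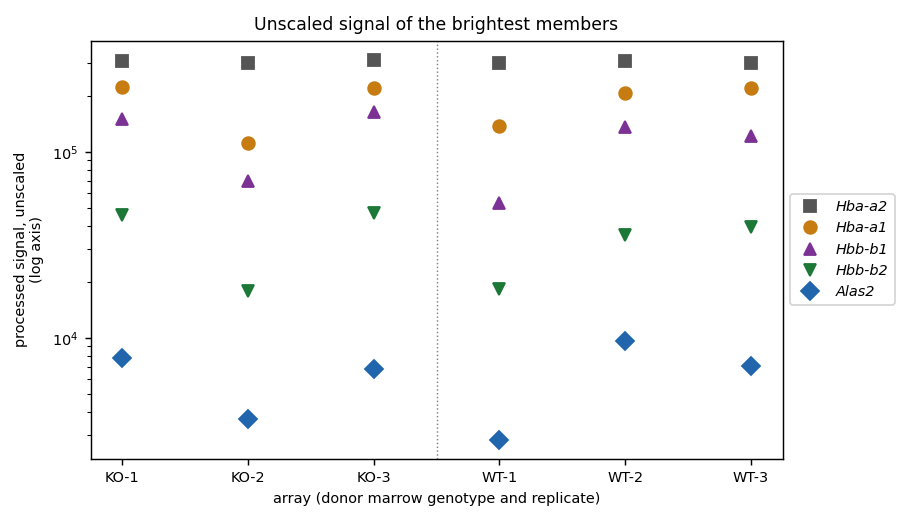
Unscaled processed signal (log axis) of the 4 adult globin probes and Alas2 on each array, with KO arrays left of WT arrays. Hba-a2 stays between 298516 and 312300 on all arrays, while the other probes are lowest on KO replicate 2 and WT replicate 1.

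Genes that serve haemoglobin assembly and haem supply were also lowest on WT replicate 1 and next lowest on KO replicate 2 on unscaled signals. Ahsp, which binds free alpha globin and keeps it from precipitating, had unscaled signals of 128, 96.2 and 131 with KO marrow, against 15.6, 257 and 135 with WT marrow. WT replicate 1 was thus the lowest and WT replicate 2 the highest of all 6. That is a 19.4-fold span within the WT group on the scaled level, against 2.21-fold within the KO group. The span rests on WT replicate 1, whose level of -4.68 was near -5.11, the lowest called well above background on that array. The difference of 0.82 ± 0.97 had a 95% interval from -1.46 to 3.09 (adjusted p = 0.834, limma), and the levels were -1.41 ± 0.57 with KO marrow and -2.23 ± 2.21 with WT marrow. Leaving out WT replicate 1 turned this difference to -0.41, and normexp background correction gave 0.30.

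Alas2, the red cell form of the first enzyme of haem synthesis, had unscaled signals of 7784, 3679 and 6826 with KO marrow, against 2845, 9588 and 7051 with WT marrow. KO replicate 2 and WT replicate 1 were again lowest. Levels were 4.22 ± 0.85 with KO marrow and 3.92 ± 1.01 with WT marrow, and the difference of 0.30 ± 0.57 had an adjusted p of 0.904 (limma). Slc4a1, the band 3 anion exchanger of the red cell membrane, had 348, 264 and 306 with KO marrow, against 147, 944 and 504 with WT marrow on the unscaled signal. WT replicate 1 was lowest and WT replicate 2 highest, so that the KO arrays lay inside the WT range. Its difference was -0.15 ± 0.67 (adjusted p = 0.962, limma), with levels of -0.04 ± 0.46 with KO marrow and 0.11 ± 1.47 with WT marrow.

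The regulators of red cell formation gave little signal in the arch and another order. Epor, the receptor through which erythropoietin keeps red cell progenitors alive, had unscaled signals of 155, 74.9 and 34.3 with KO marrow, against 113, 108 and 169 with WT marrow. KO replicate 3, the array highest in 5 of the 7 other members tested, was the lowest for Epor. Its level was -2.08 ± 0.89 with KO marrow and -1.59 ± 0.29 with WT marrow, a difference of -0.50 ± 0.42 (95% interval from -1.47 to 0.48, adjusted p = 0.756, limma). Endothelial cells are also known to carry Epor, and the endothelial markers of the array profiles were lowest on KO replicate 3 too. The part of that in the Epor values was not tested. Klf1, the factor that turns on adult beta globin, had 9.24, 6.29 and 3.11 with KO marrow, against 14.5, 7.29 and 12.4 with WT marrow, and no spot was well above background. No fold is given for it.

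**Figure D2:**
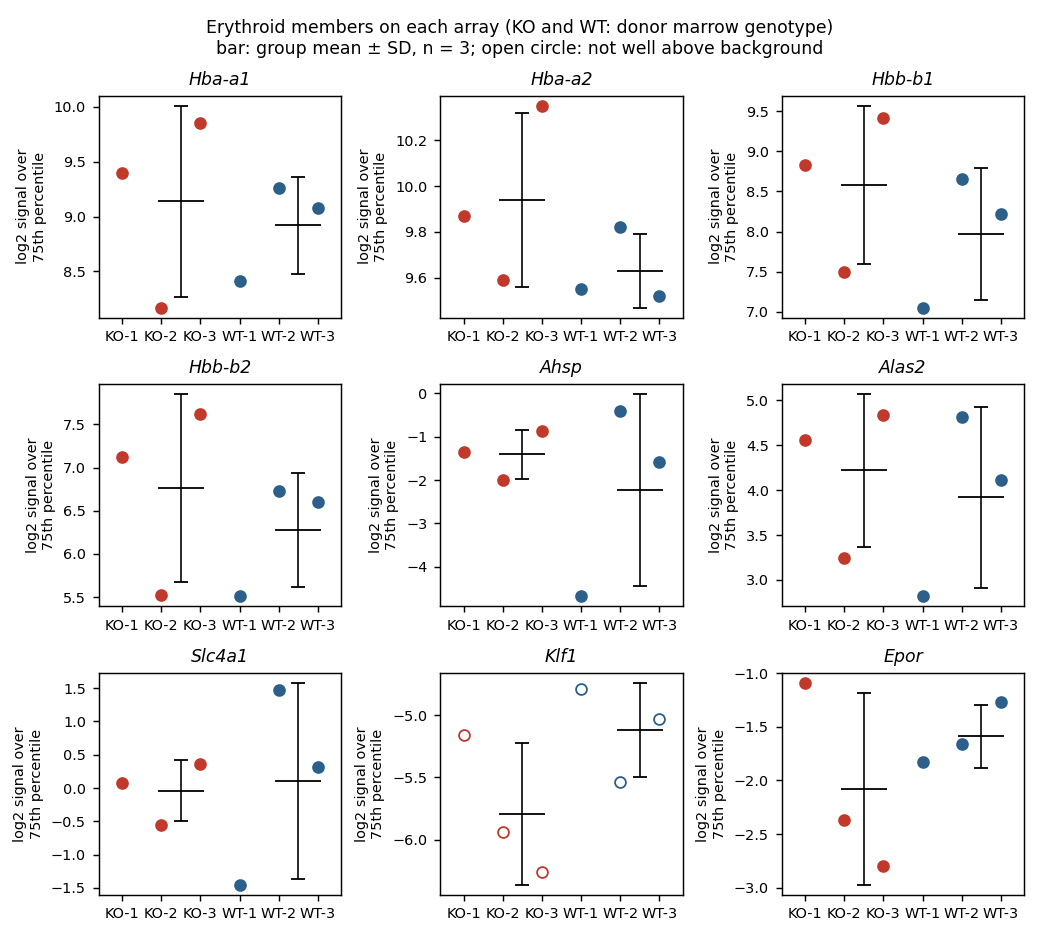
Log2 signal relative to the array's 75th percentile (vertical axes, each panel with its own range) of the 9 members on each array, KO arrays left of WT arrays, with the group mean and SD (n = 3) as bars. KO replicate 2 and WT replicate 1 are the low points in the Hba-a1, Hbb-b1, Hbb-b2 and Alas2 panels, WT replicate 3 is lowest for Hba-a2 (9.52), and all Klf1 circles are open, that is not well above background.

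The spread between arches of one group was larger for most members than for most of the array. The SD within groups was 1.61 for Ahsp, with WT replicate 1 near background, and 0.342% of tested probes exceeded it. It was 1.09 for Slc4a1, exceeded by 1.35% of probes, and 0.93 for Alas2, exceeded by 2.10%. For Hbb-b1 and Hbb-b2 it was 0.91, for Hba-a1 0.69 and for Epor 0.66, against a median of 0.25 over all tested probes. Hba-a2 at 0.29 was the exception, exceeded by 39.1% of probes. This compares each probe's spread with that of the rest as a description, with no test.

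**Figure D3:**
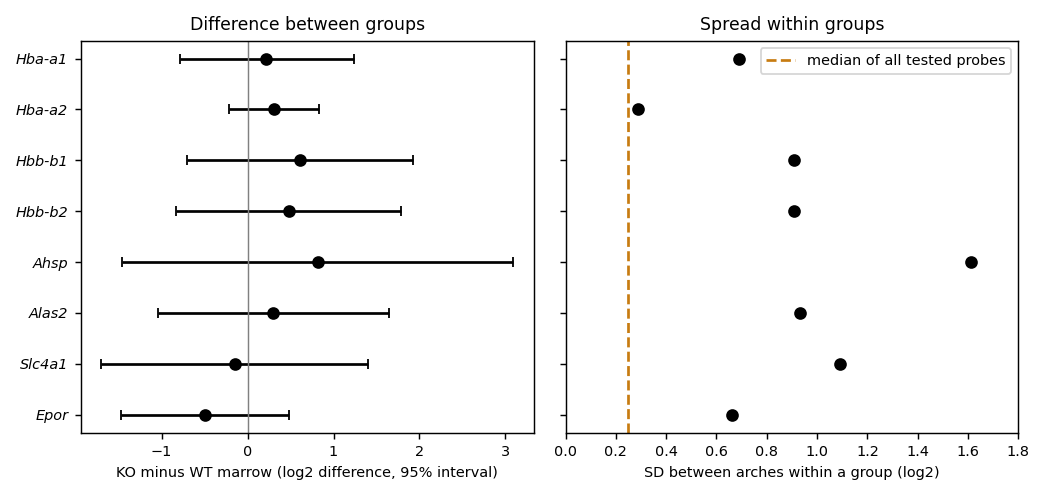
Left, the KO minus WT log2 difference of the 8 members tested with its 95% interval. Right, the SD between arches within a group, with the median over all tested probes (0.25) as a dashed line. All 8 intervals include 0, and 7 of the 8 SDs lie at 0.66 or above.

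As a measure of residual blood, each array's mean over the 4 adult globin probes was 8.80, 7.69 and 9.31 on the KO arrays, against 7.63, 8.61 and 8.35 on the WT arrays. The group means were 8.60 ± 0.83 with KO marrow and 8.20 ± 0.51 with WT marrow (SD, n = 3 each), so the difference of 0.40 was below the SD of either group. Without Hba-a2 the arrays read 8.45, 7.06 and 8.97 with KO marrow, against 6.99, 8.21 and 7.96 with WT marrow, a difference of 0.44. On unscaled signals these 3 probes averaged 16.81, 15.66 and 16.87 with KO marrow, against 15.64, 16.62 and 16.63 with WT marrow, so 2 arrays stood about 1 log2 unit below the other 4. KO replicate 2 and WT replicate 1 were those arrays on both scales, while the place of KO replicate 3 at the top rested partly on its low 75th percentile.

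Taking the 7 red cell members tested apart from Epor, all 7 lay below their own 6-array mean on KO replicate 2 and on WT replicate 1. On KO replicates 1 and 3 and on WT replicate 2, 0 of the 7 did. WT replicate 1 was the lowest array for 5 of the 7, and KO replicate 3 the highest for 5. The mean deviations of these 7 were 0.37, -0.63 and 0.81 with KO marrow, against -1.24, 0.64 and 0.05 with WT marrow. Epor, left out here, showed another order. With it, 8 of 8 members tested lay below their mean on KO replicate 2, 7 on WT replicate 1 and 1 on KO replicate 3. The mean deviations of all 8 were 0.42, -0.62 and 0.59 with KO marrow, against -1.08, 0.58 and 0.11 with WT marrow.

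Other genes of the red cell were read from lists that include the members. In each list 0 genes passed the adjusted test (limma), against 0.00261% of all probes, and the median difference over 17540 named genes was 0.01. The 5 adult globin probes had a median difference of 0.48. The 5 measured embryonic and minor globins had a median of 0.09, with Hbq1a at 0.74 ± 0.49, Hbb-y at 0.36 ± 0.27 and Hbb-bh2 at -0.16 ± 0.19. Globins of other tissues read -0.75 ± 0.72 for myoglobin (Mb) and -0.19 ± 0.28 for cytoglobin (Cygb). Neuroglobin (Ngb) had levels of -3.52, -3.75 and -3.63 with KO marrow, against -5.32, -4.23 and -3.62 with WT marrow. On WT replicate 1 it did not clear background, so no difference is given.

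Haem synthesis enzymes had a median difference of -0.12 over 9 genes. Cpox, a late step of the pathway, read 0.40 ± 0.23, Urod -0.27 ± 0.18 and Alas1, the form of the first enzyme used outside red cells, -0.48 ± 0.50. Among 10 iron uptake genes the median was -0.14, with Tfr2 at -1.12 ± 0.41, the iron receptor Tfrc at -0.39 ± 0.25 and the haem exporter Mfsd7b (Flvcr1 in RefSeq) at -0.48 ± 0.30. The 12 measured erythroid transcription factors had a median of 0.02, with Myb at -0.79 ± 0.41 and Ikzf1 at -0.48 ± 0.32. Gata1, which platelet precursors also use, had levels of -3.57, -4.62 and -2.47 with KO marrow, against -4.97, -3.43 and -5.57 with WT marrow. It was well above background on 4 of the 6 arrays, and no difference is given.

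The 10 measured genes of the membrane skeleton had a median of -0.06, with the adducin Add3 at -0.63 ± 0.24, Epb4.9 (Dmtn in RefSeq) at -0.45 ± 0.18 and the ankyrin Ank1 at 0.14 ± 0.23. The 12 surface and blood group genes had a median of -0.08, with the water channel Aqp1 at -0.41 ± 0.17 and Xk at 0.43 ± 0.33. The urea transporter Slc14a1 had levels of -4.14, -4.96 and -4.87 with KO marrow, against -4.60, -3.40 and -4.09 with WT marrow, was well above background on 4 of the 6 arrays and is given no difference.

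The 18 other genes of late red cells had a median difference of -0.02, with Hemgn at -0.45 ± 0.22, Prdx2 at -0.27 ± 0.16 and Bnip3l, which clears mitochondria from reticulocytes, at 0.18 ± 0.18. Across arches, 7 of the 18 were lowest on WT replicate 1 and 6 on KO replicate 2, while 6 were highest on WT replicate 2 and 5 on KO replicate 3. Bpgm, which makes the haemoglobin regulator 2,3-bisphosphoglycerate, read 2.65, 1.83 and 2.90 with KO marrow, against 1.42, 2.71 and 2.46 with WT marrow on the log2 scale. The mitochondrial iron importer Slc25a37 read 3.29, 2.30 and 3.45 with KO marrow, against 1.62, 3.50 and 2.76 with WT marrow. Both were lowest on WT replicate 1 and next lowest on KO replicate 2. The iron uptake list that holds Slc25a37 did not share this. Of its 10 genes, 1 was lowest on WT replicate 1, 2 on KO replicate 2 and 4 on KO replicate 3. Bpgm and Slc25a37 were chosen after their values were seen.

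Genes of erythropoietin receptor signalling, a list that includes Epor, Kit and Kitl, had a median difference of -0.05 over 15 genes. Of these, 5 had a higher and 10 a lower mean with KO marrow. Stat5a, a transcription factor that the receptor activates, read 1.30, 0.55 and 0.48 with KO marrow, against 1.69, 1.75 and 2.14 with WT marrow on the log2 scale. The KO arrays lay wholly below the WT arrays, as in 13.7% of probes in either direction, and the difference of -1.08 ± 0.26 did not pass (adjusted p = 0.42, limma). Cish, a feedback inhibitor induced by Stat5, read 1.51, -1.23 and -1.14 with KO marrow, against 2.51, 1.44 and 1.37 with WT marrow, a difference of -2.06 ± 0.72 (adjusted p = 0.524, limma). Socs2, a related inhibitor, read -0.41 ± 0.17. These genes serve many cytokines, and Stat5a and Cish were low on KO replicates 2 and 3, the arrays where fat-cell markers averaged -1.30 and -2.49 against 1.28 on KO replicate 1. The part of fat markers in these values was not tested. Epo itself was not well above background on any array.

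Markers of the other blood cells and of tissue around the arch were set beside the red cell members, as mean deviations from the 6-array average. All 11 platelet genes measured had a higher mean with KO marrow, with a median of 0.82, and 0 passed the adjusted test (limma), while 2 had an unadjusted p below 0.05. Over all tested genes 51.2% had a higher mean with KO marrow, and 8.71% of all tested probes had an unadjusted p below 0.05. Other marker lists lay to one side too. All 7 cardiac muscle genes were higher (median 0.84) and 11 of 12 fat-cell genes lower (-1.93). The 6 immature thymocyte genes were all lower (-0.60), but Ptcra, Rag1 and Rag2 were well above background on only 4 arrays. Those genes entered the test only through the WT group, so no direction is read from them. Most endothelial genes were lower (8 of 9), and most smooth muscle (6 of 7), B cell (5 of 6) and haem and iron recycling genes (10 of 13) higher. Neutrophil genes, 5 higher and 6 lower, and T cell genes, 3 and 3, were more even. Itga2b, the platelet fibrinogen receptor chain, read 1.50 ± 0.49 (adjusted p = 0.502, limma), the chemokine Ppbp 1.45 ± 0.53 and Gp5 0.94 ± 0.40. Platelet genes averaged 0.32, -0.35 and 1.30 on the KO arrays, against -0.68, 0.04 and -0.62 on the WT arrays. They were highest on KO replicate 3 for 10 of 11 genes and lowest on WT replicate 1 for 5.

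Neutrophil genes averaged 0.57, 0.03 and -0.69 with KO marrow, against -0.16, 0.75 and -0.51 with WT marrow, highest on WT replicate 2 for 6 of 11 genes. They were thus low on KO replicate 3, where red cell and platelet genes were high. B cell genes averaged 0.50, -0.68 and 0.29 with KO marrow, against -0.14, -0.22 and 0.25 with WT marrow. T cell genes averaged 0.23, -0.49 and 0.05 with KO marrow, against -0.06, 0.30 and -0.03 with WT marrow. Immature thymocyte genes averaged 0.37, -1.14 and -0.22 with KO marrow, against 0.31, 0.29 and 0.38 with WT marrow. They were low on KO replicate 2 but not on WT replicate 1. The KO replicate 2 mean includes Ptcra, Rag1 and Rag2, which did not clear background there. All 6 B cell, 6 T cell and 11 platelet genes tested gave 0 calls (limma).

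Among tissue markers, the mean of the cardiac muscle genes was lowest on the arrays poorest in red cell RNA, with WT replicate 3 nearly as low. These genes averaged 1.69, -1.20 and 1.10 with KO marrow, against -0.83, -0.04 and -0.72 with WT marrow. Of the 7 genes, 4 were lowest on KO replicate 2, 2 on WT replicate 1 and 1 on WT replicate 2. Fat-cell markers did not share the order, with 1.28, -1.30 and -2.49 with KO marrow, against 0.97, 0.35 and 1.19 with WT marrow. Endothelial markers averaged 0.22, -0.22 and -0.68 with KO marrow, against 0.33, 0.16 and 0.18 with WT marrow, and smooth muscle markers -0.24, 0.25 and 0.50 with KO marrow, against -0.21, 0.01 and -0.30 with WT marrow. Genes of haem and iron recycling averaged 0.11, 0.44 and -0.38 with KO marrow, against 0.15, -0.16 and -0.16 with WT marrow. That list includes Hp, Trf, Fth1 and Ftl1 and is not specific to the macrophages that clear old red cells. Hmox1, the enzyme that breaks haem down, read 0.69, 3.37 and 0.19 with KO marrow, against 1.25, 0.64 and 0.69 with WT marrow, with KO replicate 2 far above the rest. It was chosen after its values were seen. How far the amount of heart, fat or other tissue on each arch moved the red cell values was not tested.

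**Figure D4:**
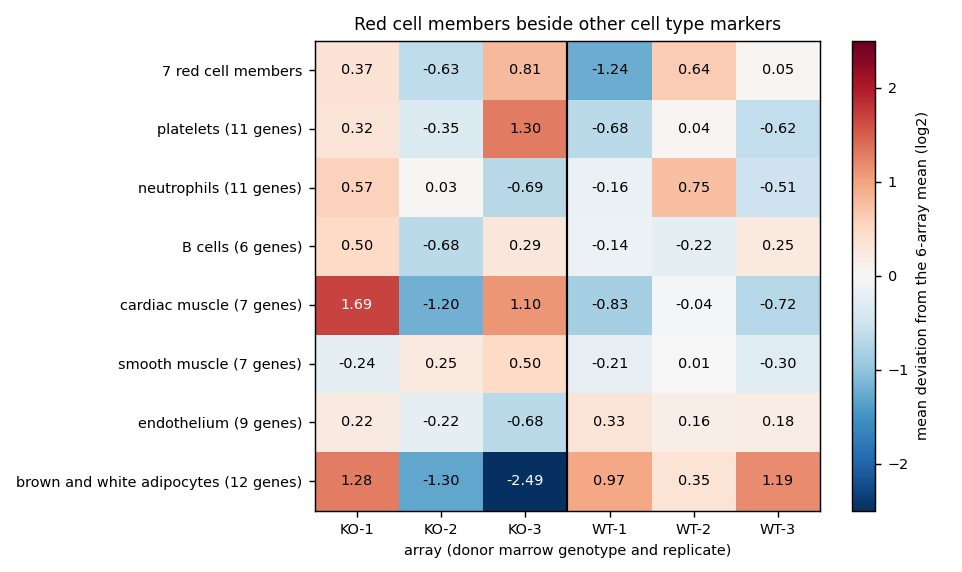
Mean deviation from the 6-array average (log2, colour and printed value) of the 7 red cell members tested, without Epor, and of marker lists of other cell types. Each array has its own column, with KO arrays left of WT arrays. The red cell row is lowest on WT replicate 1 (-1.24) and KO replicate 2 (-0.63), the platelet row is highest on KO replicate 3 (1.30), and the fat-cell row is lowest on KO replicates 3 and 2.

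The genes most like the adult globin profile were ranked by the root mean square difference from the mean of the 4 globin members over the 6 arrays. Among 17533 named genes these were Wdr62 and Nos1ap (0.09 each), S100a5 and Ttll10 (0.10 each) and Gdpd2 (0.13), against 0.60 for a gene with a flat profile. Beta-s, with wider swings of the same order, stood at 0.31 and ranked 115. With 6 arrays and this many genes, such likeness is a description of these arches only.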

How the data were processed

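Each array was scanned in 1 colour. The file headers name Agilent Feature Extraction 10.7.3.1 as the software that made the deposited values. Its processed signal is a linear intensity, corrected inside each array for background and spatial trends, with surrogates for low values and no scaling between arrays, per the file headers. Marks for background, saturation and outliers (0 or 1) are other values deposited by the authors from that software. Arch RNA (100 ng, integrity number above 7.5) was labelled with Cy3, per the labels' protocols. The authors' series table matched these signals to within 0.5%, which settles its linear scale, with column medians from 32.1 to 54.3.

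Signals were taken as log2, less the array's 75th percentile over spots that are not controls. Outlier spots were left out and spots of a probe averaged. Probes well above background on all 3 arrays of a group were tested with lmFit and eBayes (limma 3.58.1, R 4.3.3), two-sided, adjusted by Benjamini-Hochberg over all 38340 probes at a threshold of 0.05. In 5 simulated data sets of 38340 probes each, log2 shifts of 1 were called for 25.2% of 250 probes and shifts of 2 for 80.0% of 250. The shifted probes were picked at random from all tested probes, whose median SD within groups was 0.25. Most members varied more, such as Hbb-b1 at 0.91, so these shares do not carry over to them. Symbols came from a RefSeq table on GRCm38.p6, by accession for 8 members, while Ahsp kept the file's name. Lists used the brightest tested probe per gene. The genes named were all members, the 3 of each red cell list, and of the platelet list, with the smallest p, and the 5 most like the globin mean, apart from those said to be chosen after their values were seen. Members and lists were chosen with earlier results of these data known.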

Additional observations from a re-analysis of the deposited data

How the results depend on the processing

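Of 112 member differences recomputed under 14 alternatives, 104 kept their direction, 0 passed the adjusted test and adjusted p ran from 0.138 to 1. The other 8 changed sign. Hba-a1 read -0.13 without KO replicate 3, -0.03 without WT replicate 1 and -0.07 with no scaling, Ahsp -0.41 without WT replicate 1, Alas2 -0.01 without KO replicate 3 and -0.25 without WT replicate 1, and Slc4a1 0.11 without KO replicate 2 and 0.53 without WT replicate 2. When 1 array was left out, differences ran from -0.13 to 0.71 for Hba-a1, -0.41 to 1.73 for Ahsp, -0.25 to 0.78 for Alas2, -0.93 to 0.53 for Slc4a1, 0.10 to 0.48 for Hba-a2, 0.15 to 1.15 for Hbb-b1, 0.04 to 1.09 for Hbb-b2 and -1 to -0.14 for Epor. The median of the 5 adult globin probes was 0.10 without KO replicate 3, 1.09 without KO replicate 2 and 0.19 with no scaling. The adult globin mean difference ran from 0.05 to 0.86 when 1 array was left out, and was 0.11 with no scaling. No scaling, the globin mean without Hba-a2 and the globin covariate were chosen after seeing the data. No scaling moved the median of all tested probes from 0.02 to -0.27, and list medians to -0.41 for haem synthesis, -0.27 for transcription factors, -0.35 for membrane skeleton, -0.37 for surface proteins, -0.43 for iron uptake and -0.34 for erythropoietin signalling. Haem synthesis ran from -0.40 to 0 when 1 array was left out. The number of probes called was 1 as reported, 4 with normexp, 2 with median centring, 7 with no scaling and 3 with the globin mean as covariate. It was 0 among 35205 probes well above background on all arrays (limma, 3007 at an unadjusted p below 0.05), and 1 to 2 when 1 array was left out, 2 without KO replicate 3. The cause was not tested. Deviations of same-numbered arrays correlated at 0.12, 0.05 and -0.28, against -0.38 to 0.39 for pairs with unlike numbers. At 3 arrays per group this cannot show whether the numbers pair the arches. With the replicate block the adult globin mean difference stayed at 0.40 and 1 probe was called.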
